A study of Mus musculus with 18 samples.

Results

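The comparison described here sets 3 striatal libraries of mice given 6-hydroxydopamine (6-OHDA) and TUG469 against 3 striatal libraries of mice given 6-OHDA alone, which are 6 of the 18 libraries of the study. Members were chosen by their labels: TUG469 libraries 1, 2 and 4, and 6-OHDA libraries 2, 3 and 4. The design text names C57BL6 mice, the labels give the genotype as WT, and all libraries carry a time of 3 weeks. Mice of both groups carried 4 µg of 6-OHDA in the striatum; the treated group had TUG469 at 10 mg/kg per day by intraperitoneal injection, and the other had phosphate-buffered saline (PBS) by that route. A further group of 3 mice with PBS by both routes is shown beside them as the background. Nothing in the labels says that same-numbered libraries of different groups are related, nor gives the age or sex of the mice. Each library is taken as 1 animal, and p-values measure the spread between these libraries.

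6-OHDA enters dopamine neurons through the dopamine transporter and kills them by oxidation, so an injection into the striatum strips that tissue of its dopamine fibres while most striatal neurons remain. TUG469 activates GPR40, a receptor for long-chain free fatty acids (gene Ffar1) known from insulin-secreting cells, which signals through Gq proteins. The study asked how such an agonist acts in this model, with the NLRP3 inflammasome, the complex that activates caspase-1 and matures interleukin-1 beta and interleukin-18, as its candidate pathway. Ffar1, Il1b, Tnf and Il6 were not listed among the striatal genes, so they could not be analysed here.

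Total counts ran from 48214331 to 54545178 in the 6-OHDA and from 58351871 to 61992226 in the TUG469 libraries, and mitochondrial genes took 9.91% to 11.5% of counts over the 9 striatal libraries. Levels below are in CPM, read counts made comparable between libraries by their totals, and are compared within a gene. The tissue label held: the summed level of 15 projection neuron markers was 10910 to 17820 CPM. The libraries PBS 2, 6-OHDA 4 and TUG469 2 held 25.8, 30.0 and 80.1 CPM of the cortical glutamate transporter gene Slc17a7, against 243 to 569 in the other 6 libraries, so 1 library of each group held less cortical RNA. The library 6-OHDA 2 stood apart in choroid plexus genes, with a summed level of 2200 CPM against 174 to 388.5 in the other 8. In the nigra of the same groups, where the labels imply a lesion, the dopamine transporter gene Slc6a3 was at 66.8, 44.7 and 52.5 CPM in the libraries labelled 6-OHDA, 70.1, 53.3 and 49.1 in PBS, and 12.3, 16.8 and 11.8 in the libraries labelled TUG469. The nigral libraries labelled 6-OHDA thus showed no loss of this marker. Of other dopamine markers, Th was at 61.5, 42.6 and 50.1 CPM in 6-OHDA and 38.35, 25.4 and 35.6 in PBS libraries. Its TUG469 libraries held 17.9, 20.8 and 12.6 CPM. Slc18a2 was at 106.9, 48.8 and 110.3 CPM in 6-OHDA and 56.8, 41.5 and 49.6 in PBS libraries. Ddc was at 85.6, 45.7 and 79.1 CPM against 55.9, 49.6 and 41.4. TUG469 1, 2 and 4 held 53.3, 12.55 and 14.6 CPM of Slc18a2 and 50.3, 22.7 and 20.4 of Ddc. For both genes TUG469 1 lay within the PBS range. The groups below are named as labelled. Whether labels were exchanged between groups, in the nigra or also in the striatum, was not tested, and an exchange would change what each difference below means. In bulk tissue, fewer cells of a type and less RNA per cell cannot be told apart.

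Plekhg4 was lower in the TUG469 libraries and was the 1 gene of 19115 tested that passed the threshold, a background of 0.00523%. Plekhg4 (NCBI Gene 102075; GRCm38 chromosome 8, 105369640 to 105382860) encodes a guanine nucleotide exchange factor, a protein that switches small GTPases on. Its level was 15.1, 16.1 and 15.2 CPM in TUG469 1, 2 and 4. It was 35.9, 29.9 and 43.5 CPM in 6-OHDA 2, 3 and 4, and 31.5, 33.9 and 34.2 CPM in PBS 1, 2 and 3. All 3 TUG469 libraries lay well under all 6 others, and these 6 overlapped between groups. The log2 fold change was -1.23 (SE 0.12; edgeR quasi-likelihood test, Benjamini-Hochberg adjusted p = 0.0285). In the authors' deposited table the adjusted p of Plekhg4 was 1.47e-15. The related genes Plekhg1, Plekhg2, Plekhg3 and Plekhg5 had log2 changes between -0.04 and 0.02. With single libraries left out, the log2 change of Plekhg4 lay between -1.35 and -1.08. Its edgeR adjusted p was 0.0063 and 0.0217 without 6-OHDA 3 and 6-OHDA 4, but 0.0626 to 0.197 without PBS 1, PBS 2, PBS 3, 6-OHDA 2, TUG469 1, TUG469 2 or TUG469 4, so the call was lost in those 7 fits.

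No gene passed in the upward direction (0%) by edgeR, while 1431 genes (7.49%) had an unadjusted p under 0.05, 661 of them higher (3.46%) and 770 lower (4.03%). DESeq2 called 27 genes higher and 34 lower, and 63 genes lay past an adjusted p of 0.05 in the authors' deposited table. Over all genes the median log2 change was 0.00, and 50.04% of genes were higher. Groups did not overlap for 1359 genes that were higher (7.11%) and 1488 that were lower (7.78%). In 495 genes (2.59%) the TUG469 libraries lay above all 6 other libraries, and in 637 (3.33%) below them.

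**Figure D1:**
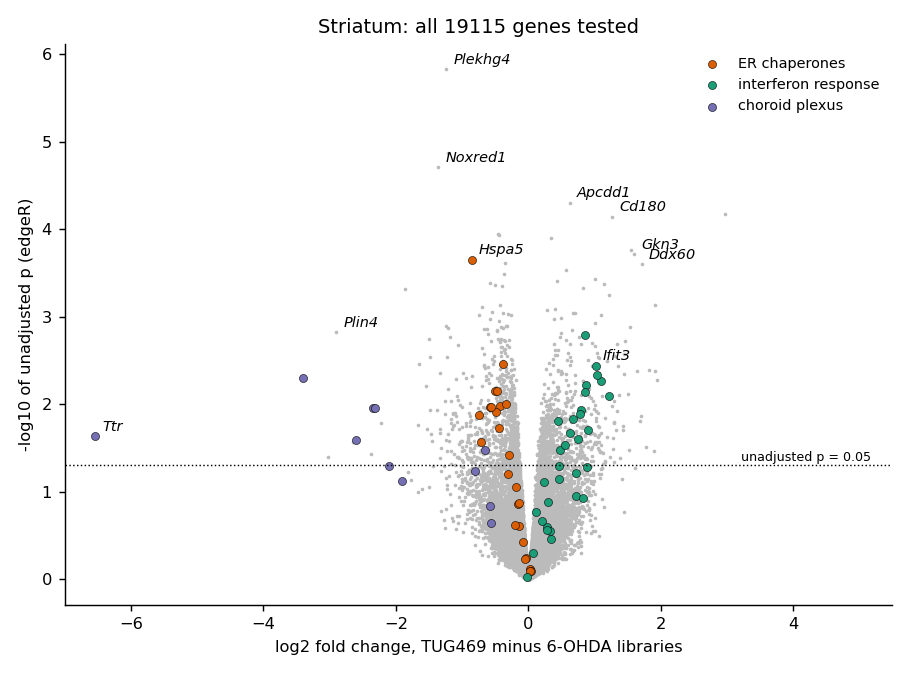
Each point is 1 of the 19115 genes tested; the x axis is the log2 fold change between TUG469 and 6-OHDA libraries (3 each), and the y axis is the negative log10 of the unadjusted edgeR p. Plekhg4 is the highest point, ER chaperones (orange) lie mostly to the left, interferon response genes (green) mostly to the right, and choroid plexus genes (violet) far to the left.

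The genes described next were among the 10 with the smallest p in each direction, taken from those whose groups did not overlap and passing over predicted genes, so their separation follows from that choice. Noxred1, an oxidoreductase domain gene, was at 3.05, 2.99 and 3.19 CPM in the 6-OHDA libraries and 1.11, 1.33 and 1.15 in the TUG469 libraries. Its log2 change was -1.36 (SE 0.18; edgeR adjusted p = 0.125). Cd180, which encodes a Toll-like receptor relative of B cells and myeloid cells, was at 1.41, 1.83 and 1.30 CPM in 6-OHDA and 3.25, 4.06 and 3.65 in TUG469 libraries, with PBS at 1.08, 1.28 and 1.45. These groups were far apart, with a log2 change of 1.27 (SE 0.20; edgeR adjusted p = 0.228). Apcdd1, an inhibitor of Wnt signalling known from brain vessels, was at 15.2, 16.2 and 13.2 CPM in 6-OHDA and 23.7, 22.3 and 22.7 in TUG469 libraries. Its log2 change was 0.62 (SE 0.09; edgeR adjusted p = 0.228).

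The other genes of that group of higher ones included Gkn3, an arterial endothelial marker in mouse brain, with a log2 change of 1.60 at 0.470 to 1.04 CPM in the 6-OHDA libraries. Fabp5, a fatty acid carrier, went from 53.4, 54.6 and 51.6 CPM to 68.7, 70.1 and 64.3 (log2 change 0.35). Ddx60 and Ifitm1, both induced by interferon, had log2 changes of 1.71 and 1.01. The lower ones included P4ha1, a subunit of collagen prolyl hydroxylase, at 73.9, 68.2 and 88.3 CPM in 6-OHDA and 49.96, 50.2 and 54.2 in TUG469 libraries (log2 change -0.58). Irs2, the adaptor of the insulin receptor, had a log2 change of -0.58, and the heat shock protein gene Dnajb5 one of -0.50. None of these passed the adjusted threshold by edgeR, where their adjusted p lay between 0.125 and 0.366, and DESeq2 called each of them.

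**Figure D2:**
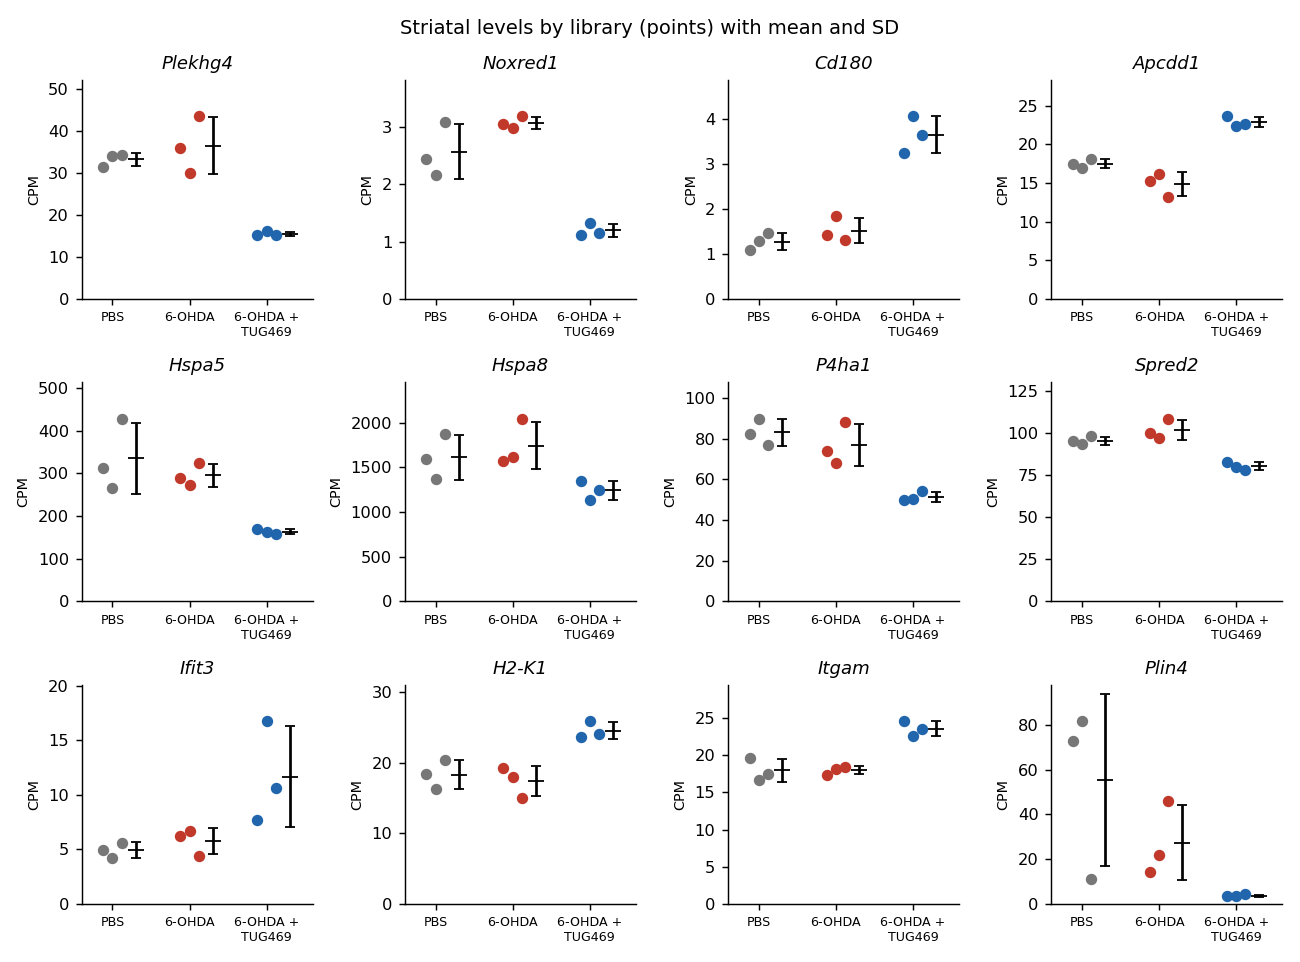
CPM of 12 genes in the 9 striatal libraries (points), by group, with the mean and SD of 3 libraries beside each group; every y axis starts at 0. TUG469 libraries lie outside both other groups in most panels, the Ifit3 panel is spread by TUG469 2, and the Plin4 panel shows wide spread in PBS and 6-OHDA libraries and 3 close TUG469 values.

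Genes of endoplasmic reticulum (ER) chaperones, and others listed with them, were mostly lower in the TUG469 libraries. No single one passed the adjusted threshold by edgeR. Chaperones fold and check secreted proteins, and the transcription factors ATF6 and XBP1 raise their genes when unfolded protein accumulates. The list, called ER chaperones here and in the figures, also holds Atf6 and Xbp1 themselves. It further holds genes of protein degradation such as Syvn1, Derl3 and Sel1l. The list of 25 was put together after the values had been seen, so its direction is a description. Of 25 measured members, 22 were lower and 13 were lower at an unadjusted p under 0.05, against 4.03% of all genes. Without overlap between groups, 16 were lower (7.78% of all genes), and 11 lay below all 6 other libraries (3.33%). The median log2 change was -0.30.

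Hspa5, the master chaperone BiP of this compartment, was at 290, 272 and 324 CPM in 6-OHDA 2, 3 and 4 and at 170, 162 and 158 in TUG469 1, 2 and 4. PBS libraries held 312, 265 and 428 CPM, so the TUG469 libraries were lowest and close together. Its log2 change was -0.85 (SE 0.15; edgeR adjusted p = 0.322; DESeq2 adjusted p = 8.92e-05). Sdf2l1, a cofactor of BiP, and the disulfide isomerase genes Pdia4 and Pdia6 had log2 changes of -0.74, -0.57 and -0.56. The glucose-regulated chaperone Hsp90b1 was at 414, 403 and 521 CPM in 6-OHDA and 336, 318 and 303 in TUG469 libraries. Calr, Creld2 and Manf had log2 changes of -0.50, -0.47 and -0.45. The members near 0 included Herpud1 (-0.05) and Dnajb9 (0.03), both also known as targets of ER stress.

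The cis element that ATF6 reads is known as the ER stress element, CCAAT, any 9 bases and CCACG. RefSeq promoter windows (GRCm38.p6, 250 bases before to 50 after the start site) existed for 22 of the 25 genes, and 9 of them held it in full on either strand, against 0.137% of 27025 genes with a window. The search for this motif was added after the values were known. The list holds genes of the ATF6 and XBP1 arm, so a high share follows from that choice. All 9 genes with the motif were lower and 7 of them at an unadjusted p under 0.05; of the 13 with a window and no match, 10 were lower and 4 at that p. The stretches below show the element (capitals, in either orientation) in 6 of those 7 genes, leaving out Derl3, 5′ to 3′ on the strand of the gene.
Hspa5, chr2:34772010-34772058, plus strand: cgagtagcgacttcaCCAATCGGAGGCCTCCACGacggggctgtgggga
Hsp90b1, chr10:86705518-86705671, minus strand: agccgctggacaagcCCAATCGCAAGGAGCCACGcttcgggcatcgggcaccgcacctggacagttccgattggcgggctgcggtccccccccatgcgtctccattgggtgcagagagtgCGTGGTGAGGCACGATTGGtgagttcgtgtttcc
Calr, chr8:84847060-84847108, minus strand: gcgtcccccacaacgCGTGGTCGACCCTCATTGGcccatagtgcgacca
Creld2, chr15:88819505-88819553, plus strand: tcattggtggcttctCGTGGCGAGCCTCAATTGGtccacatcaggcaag
Pdia6, chr12:17266476-17266524, plus strand: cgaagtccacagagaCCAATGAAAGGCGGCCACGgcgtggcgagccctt
Dnajc3, chr14:118937812-118937860, plus strand: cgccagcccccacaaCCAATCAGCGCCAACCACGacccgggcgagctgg
The element lay 46 bases before the start site of Hspa5, and Hsp90b1 held 2 copies in opposite orientation.

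Genes of the other branch of the ER stress response, driven by the kinase PERK and the factor ATF4, did not share this direction. Of 14 such genes, 12 were higher, with a median log2 change of 0.03 and a range from -0.08 to 0.68. Atf4, Ddit3 and Asns, the factor itself and a cell death and an amino acid gene it induces, each had a log2 change of 0.02. Trib3, an inhibitor in this branch, had 1.25, 1.38 and 1.76 CPM in 6-OHDA and 1.72, 2.74 and 2.56 in TUG469 libraries, groups that overlapped.

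Heat shock genes, mostly of cytosolic proteins, were lower in all 20 measured members of a list also drawn up after the values were seen. The factor HSF1 raises such genes. The list, called cytosolic heat shock genes here, also holds Hspd1 and Hspe1, whose proteins work in mitochondria, and Hsf1 itself. The median log2 change was -0.29, and 10 genes were lower at an unadjusted p under 0.05 (background 4.03%). Hspa8, the constitutive HSP70 and the most abundant of them, was at 1567, 1613 and 2045 CPM in 6-OHDA and 1344, 1131 and 1251 in TUG469 libraries (log2 change -0.49, SE 0.14; edgeR adjusted p = 0.572). Chordc1, Hsph1 and Stip1, cochaperones of HSP90 and HSP70, had log2 changes of -0.49, -0.47 and -0.43. The strongly inducible genes Hspa1a and Hspa1b overlapped between groups. The count at an unadjusted p under 0.05 was 6, 2, 3 and 3 without 6-OHDA 3, 6-OHDA 4, TUG469 2 and TUG469 4, while all 4 medians lay between -0.32 and -0.23; without the 3 libraries low in cortical markers it was 2, with a median of -0.17. A heat shock element, searched as TTC, any 2 bases, GAA, any 2 bases and TTC, was found on either strand in 4 of the 15 genes with a window, against 0.662% of all genes. Hspd1 and Hspe1, which are among these 4, lie on opposite strands of the same matched stretch, so its matches count for both genes. A share above that of all genes follows from the choice of heat shock genes for the list. The median log2 change was -0.33 for the 4 genes with the motif and -0.36 for the 11 with a window and no match.

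Cirbp, an RNA-binding protein gene raised by cooling, was at 34.2, 34.3 and 28.3 CPM in 6-OHDA and 45.6, 53.4 and 44.8 in TUG469 libraries, with 37.6, 49.3 and 28.8 in PBS. The groups compared did not overlap, and the log2 change was 0.57 (SE 0.17; edgeR adjusted p = 0.573). Rbm3, the other gene of this kind, overlapped between groups, with a log2 change of 0.28. Among PBS libraries, PBS 3 had the highest summed levels of ER chaperones (3440 CPM) and the lowest Cirbp. PBS 2 had the lowest chaperones (2490 CPM) and the highest Cirbp. In the 6-OHDA group, 6-OHDA 4 had the highest chaperones (3115 CPM) and the lowest Cirbp. In the TUG469 group, TUG469 4 had the lowest chaperones (2131 CPM) and also the lowest Cirbp. A link between these levels, or a cause of them, was not tested.

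**Figure D3:**
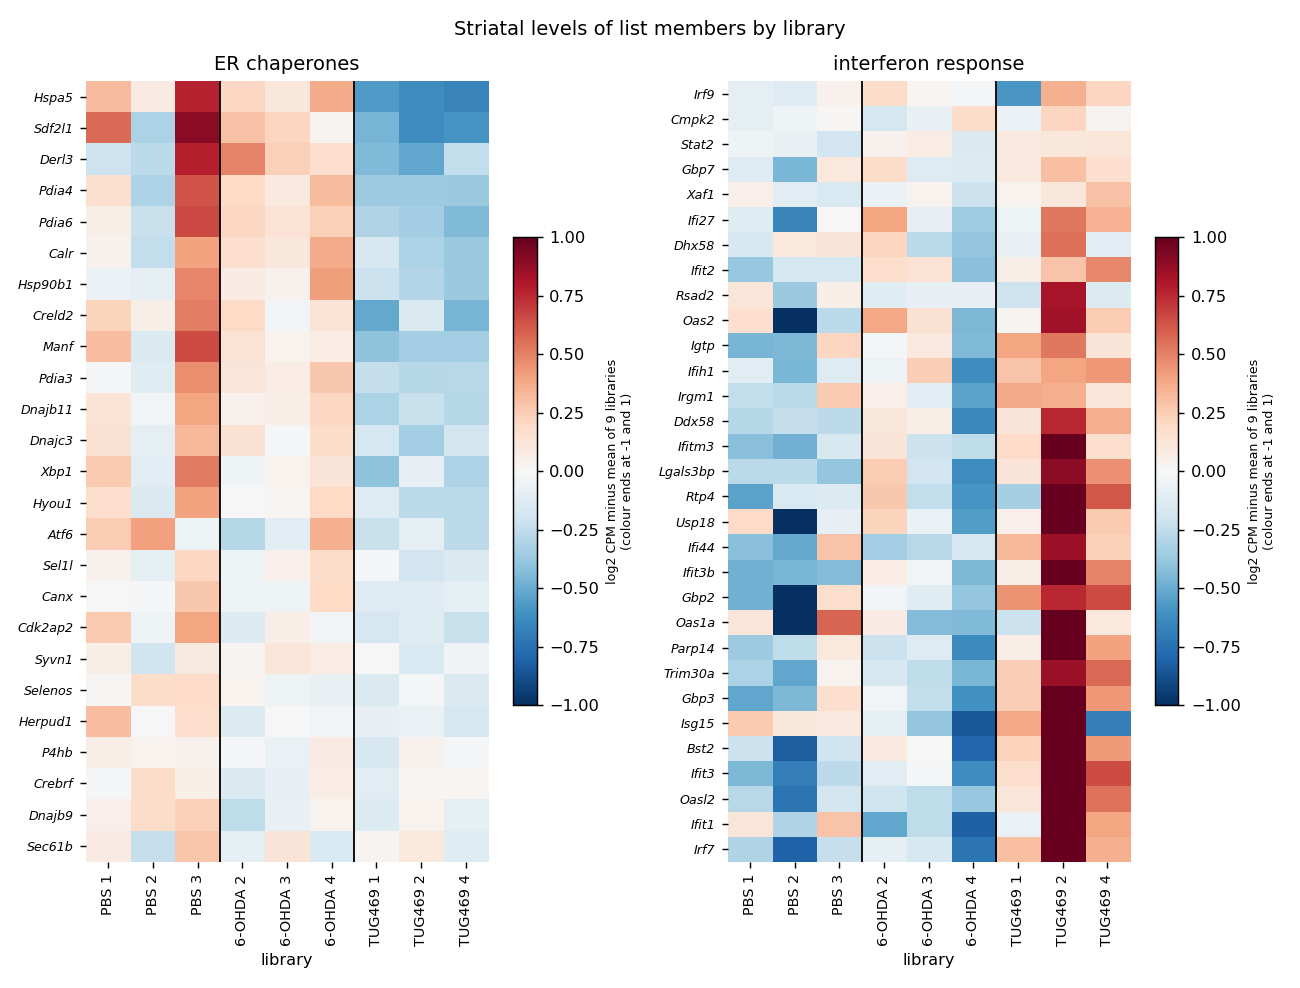
Log2 CPM of each ER chaperone (left) and of 31 interferon response genes (right) minus its mean over the 9 striatal libraries, with genes ordered by their log2 change and lines between PBS, 6-OHDA and TUG469 libraries; colours end at -1 and 1. The upper rows on the left are blue in all 3 TUG469 libraries and darkest red in PBS 3, while on the right TUG469 2 is the reddest column.

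Interferon response genes, which cells raise on sensing virus or interferon, were higher in 31 of 32 measured members, with a median log2 change of 0.65. At an unadjusted p under 0.05, 16 were higher (background 3.46%), 17 did not overlap between groups (7.11%) and 12 lay above all 6 other libraries (2.59%); 0 passed the adjusted threshold by edgeR and 2, Ifit3 and Trim30a, by DESeq2. Irf7, the factor that amplifies the response, was at 2.07, 1.97 and 1.32 CPM in 6-OHDA 2, 3 and 4, and at 2.71, 6.98 and 2.81 in TUG469 1, 2 and 4. Ifit3, an inhibitor of viral translation, was at 6.24, 6.67 and 4.40 CPM in 6-OHDA and 7.64, 16.8 and 10.6 in TUG469 libraries. The groups of both genes did not overlap, and TUG469 2 was the highest library by far.

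Oasl2, a relative of the RNA sensor OAS1, had a log2 change of 1.04. Without TUG469 2 the median of the list was 0.37 with 8 members higher at that p, and without the library of each group that was low in cortical markers (PBS 2, 6-OHDA 4 and TUG469 2) it was 0.21 with 5. With the cortical marker level as a covariate it was 0.66 with 19. What part the cortical RNA of a library has in its interferon genes was not tested. Of the 21 marker genes of infiltrating leukocytes, 10 were measured, with a summed level of 108 to 141 CPM in 6-OHDA and 124 to 147 in TUG469 libraries, and the T cell gene Cd3e was not listed.

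The interferon-stimulated response element was searched by its core, GAAA, any 2 bases and GAAA, on either strand. The list was made of interferon response genes, so a high share of this element follows from that choice. The core was present in 17 of the 25 list members with a window and in 3.99% of all genes. Of these 17 genes, 17 were higher and 10 at an unadjusted p under 0.05; of the 8 with a window and no match, 7 were higher and 4 at that p. The stretches show the element, or overlapping copies of it, in capitals in 4 of them, 5′ to 3′ on the strand of the gene.
Ifit3, chr19:34583358-34583431, plus strand: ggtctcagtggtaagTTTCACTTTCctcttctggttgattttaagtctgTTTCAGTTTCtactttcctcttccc
Ifit1, chr19:34640770-34640828, plus strand: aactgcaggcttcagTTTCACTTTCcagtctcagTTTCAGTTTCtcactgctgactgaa
Trim30a, chr7:104465205-104465244, minus strand: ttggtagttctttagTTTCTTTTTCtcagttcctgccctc
Gbp3, chr3:142559984-142560029, plus strand: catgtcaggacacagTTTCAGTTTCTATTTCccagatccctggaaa
Ifit3 shares nearly identical sequence with Ifit3b, whose window holds the same stretch, so reads of the pair may have been split by the authors' counting.

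Guanylate-binding proteins and related GTPases, which interferon gamma raises and which attack vacuoles of intracellular microbes, were higher in 13 of 13 measured genes with a median log2 change of 0.63, in a list chosen after the values were seen. At an unadjusted p under 0.05, 9 were higher (background 3.46%). Gbp2 was at 2.95, 2.76 and 2.28 CPM in 6-OHDA and 4.09, 5.07 and 4.72 in TUG469 libraries, and Gbp5 at 1.90, 2.29 and 2.44 against 3.25, 3.86 and 2.94. In both genes the TUG469 libraries lay above all 6 others, which held for 5 of the 13 genes (2.59% of all genes). This median was 0.54 without TUG469 2, and 0.47 with 3 genes at that p without the 3 libraries low in cortical markers.

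Genes of MHC class I presentation, the pathway that shows peptides to CD8 T cells, were higher in 18 of 20 with a median log2 change of 0.41. At an unadjusted p under 0.05, 7 were higher (background 3.46%) and 2 lower (4.03%). H2-K1, a class I heavy chain, was at 19.2, 17.98 and 14.97 CPM in 6-OHDA and 23.6, 25.9 and 24.1 in TUG469 libraries (log2 change 0.50, SE 0.12; edgeR adjusted p = 0.492). B2m, the light chain, was at 50.05, 53.7 and 43.1 CPM against 64.7, 60.6 and 65.3, and H2-D1, Tap1 and Psmb8 (a heavy chain, the peptide transporter and an immunoproteasome subunit) had log2 changes of 0.45, 0.55 and 0.72. The TUG469 libraries lay above all 6 others for 9 of the 20 genes (2.59% of all genes), H2-K1, B2m, H2-D1 and Tap1 among them, and below them for 1 (3.33%). The 2 lower members were Calr and Pdia3, which are also ER chaperones. Class I genes are near-identical copies of each other, so the split of reads between them is uncertain. The list's median was 0.42 without TUG469 2, 0.29 without 6-OHDA 4, where 4 genes in place of 7 were higher at an unadjusted p under 0.05, and 0.32 without the 3 libraries low in cortical markers.

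Microglial genes were higher as well. All 20 homeostatic microglia genes were higher, with a median log2 change of 0.26 and 6 at an unadjusted p under 0.05 (background 3.46%). Itgam, the integrin CD11b, was at 17.4, 18.2 and 18.4 CPM in 6-OHDA and 24.6, 22.6 and 23.6 in TUG469 libraries, with 19.7, 16.7 and 17.5 in PBS. The 3 TUG469 values lay above all others (log2 change 0.39, SE 0.09; edgeR adjusted p = 0.487; DESeq2 adjusted p = 0.0227). Ctss, a lysosomal protease, Cx3cr1, the fractalkine receptor, and P2ry12, the ADP receptor of resting microglia, had log2 changes of 0.36, 0.27 and 0.32 and also lay above all 6 others. Of the 20 genes, 5 lay above all 6 others (2.59% of all genes), and 8 were higher without overlap between groups (7.11%). Tmem119 did not follow, with 19.0, 22.6 and 21.4 CPM in 6-OHDA and 22.2, 20.9 and 20.8 in TUG469 libraries. Disease-associated microglia genes had a median of 0.10, with 0 of 20 at an unadjusted p under 0.05, which 7.49% of all genes had. The homeostatic median was 0.30 with 10 genes at that p without the 3 libraries low in cortical markers, and 0.32 with 11 without 6-OHDA 3. It was 0.20 with 5 genes at that p without TUG469 1, where 18 of 20 were higher, and 18 of 20 were also higher with the replicate block (median 0.23) and with the cortical marker level as a covariate (0.21).

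Vessel genes showed a similar size. Of 24 endothelial and mural genes, 20 were higher, 8 at an unadjusted p under 0.05 (background 3.46%), and the median log2 change was 0.22. Itm2a, a membrane protein gene of brain endothelium, was at 26.1, 24.8 and 25.1 CPM in 6-OHDA and 34.1, 32.8 and 35.3 in TUG469 libraries (log2 change 0.43, SE 0.08; edgeR adjusted p = 0.366). Vtn, known from pericytes, was at 46.8, 47.8 and 39.7 CPM against 63.4, 55.5 and 59.3. Pdgfrb, the growth factor receptor of mural cells, and Cdh5, the endothelial cadherin, had log2 changes of 0.31 and 0.34. Flt1 and Rgs5, defining markers of the same cells, had log2 changes of 0.03 and 0.11. The 4 lower members included Ly6c1 and Higd1b, genes of endothelium and pericytes, with log2 changes of -0.24 and -0.29. For these 2 genes the TUG469 libraries lay below all 6 others (3.33% of all genes), and for 9 of the 24 above them (2.59%). The PBS libraries had a summed level of 559 to 661 CPM, the 6-OHDA libraries 520 to 578 and the TUG469 libraries 598 to 613.

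Genes that the kinase ERK raises and that restrain it in turn, with the ETS factors under its control, were drawn up as a list after the values were seen. Of 18 measured, 14 were lower, 9 at an unadjusted p under 0.05 (background 4.03%), with a median log2 change of -0.33. Spred2, an inhibitor of the Ras pathway, was at 99.9, 97.1 and 108 CPM in 6-OHDA and 82.7, 79.9 and 77.9 in TUG469 libraries (log2 change -0.35, SE 0.06; edgeR adjusted p = 0.322; DESeq2 adjusted p = 0.00281). Dusp6, the ERK phosphatase, was at 42.7, 43.8 and 52.5 CPM against 34.7, 31.8 and 34.8. For both genes all TUG469 libraries lay under the 6 others, which held for 4 of the 18 members (3.33% of all genes). Relative to PBS the list's median was 0.12 in 6-OHDA and -0.09 in TUG469 libraries, comparisons that share libraries with this one. Etv1 and Etv5, ETS factors, and Dusp4 and Spry4, 2 more inhibitors, had log2 changes of -0.38, -0.48, -0.94 and -0.59. For Etv5 and Dusp4 the TUG469 libraries overlapped with PBS. Spry1, Dusp7 and Ccnd1 had -0.06, -0.07 and 0.04. The broader list of immediate early genes had a median of -0.13, with 2 of 20 lower at an unadjusted p under 0.05 (background 4.03%).

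Glucocorticoid response genes were lower in 23 of 24, with a median log2 change of -0.26. At an unadjusted p under 0.05, 4 were lower (background 4.03%). Plin4, a lipid droplet coat gene, was at 14.1, 21.7 and 46.1 CPM in 6-OHDA and 3.34, 3.46 and 4.15 in TUG469 libraries. PBS libraries held 73.0, 81.8 and 11.3 CPM, so PBS 3 lay under the other PBS libraries and the TUG469 libraries lay under all. The log2 change was -2.90 (SE 0.67; edgeR adjusted p = 0.492; DESeq2 adjusted p = 0.034). Tsc22d3, the leucine zipper gene GILZ, was at 66.6, 66.8 and 93.8 CPM in 6-OHDA and 36.2, 37.6 and 59.4 in TUG469 libraries, with 99.1, 103 and 50.3 in PBS. The groups compared did not overlap, and PBS 3 lay inside the range of the TUG469 libraries. Relative to PBS the list's median was -0.32 in 6-OHDA and -0.63 in TUG469 libraries, comparisons that share libraries with this one and with each other. The count of 4 was between 1 and 2 without PBS 1, 6-OHDA 3, 6-OHDA 4, TUG469 1 or TUG469 2 and 10 without PBS 3. Members were chosen as glucocorticoid response genes, so a higher share of the matching element than in all genes follows from that choice. The glucocorticoid response element core ACANNNTGT was found in 6 of 22 members with a window and in 7.90% of all genes. The median log2 change was -0.23 for these 6, with 1 at an unadjusted p under 0.05, and -0.28 for the 16 with a window and no match, with 3 at that p. It is shown in capitals for Map3k6, a kinase gene with a log2 change of -0.93, on the strand of the gene.
Map3k6, chr4:133240624-133240662, plus strand: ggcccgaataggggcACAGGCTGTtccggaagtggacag

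Choroid plexus genes had large differences, and the median of their list moved with a single library. Ttr, the thyroxine carrier made by choroid plexus, was at 1606, 8.20 and 8.32 CPM in 6-OHDA 2, 3 and 4 and at 8.01, 0.0839 and 9.37 in TUG469 1, 2 and 4. The groups overlapped, and 6-OHDA 2 stood alone. All 11 measured choroid plexus genes were lower, with a median log2 change of -2.11; without 6-OHDA 2 it was -0.26. Kl, a cofactor of fibroblast growth factor receptors, had 28.4 CPM in that library and 1.97 to 5.17 in the other 8. Prlr, the prolactin receptor, was also highest there at 6.57 CPM, but its TUG469 libraries, at 0.175, 0.285 and 0.251 CPM, lay below all 6 others, and its log2 change of -3.40 was -1.10 without 6-OHDA 2 (SE 0.31; edgeR adjusted p = 0.671). Folr1, Kcne2 and Cldn2 were not listed.

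Ependymal and motile cilium genes were lower in 24 of 24 with a median log2 change of -0.55. At an unadjusted p under 0.05, 3 were lower (background 4.03%). Without 6-OHDA 2 the median was -0.50, with 23 of 24 lower and 1 gene at that p. The median was -0.83 with 11 genes at that p without TUG469 2, -0.38 with 1 without TUG469 4 and -0.43 with 2 without 6-OHDA 4. Maats1, a cilium gene, was at 2.90, 2.91 and 3.13 CPM in 6-OHDA, 1.56, 1.90 and 1.51 in TUG469 and 0.594, 0.516 and 1.01 in PBS libraries, which left the TUG469 libraries between the other groups. Summed over the list, PBS libraries held 51.6 to 71.7 CPM, 6-OHDA libraries 111 to 139 and TUG469 libraries 75.8 to 118. Whether more ventricle wall in a dissection plays a part was not tested.

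The study's own genes showed no difference past the threshold. Nlrp3, the sensor of the inflammasome, was at 1.04, 1.04 and 0.755 CPM in 6-OHDA and 1.05, 1.01 and 0.970 in TUG469 libraries. Pycard, its adaptor, was at 2.27, 1.81 and 1.68 CPM against 1.75, 2.18 and 1.81, and Casp1, the protease, at 1.00, 0.983 and 0.434 against 0.955, 0.805 and 0.602. The groups overlapped for all 3 genes. Il18 had a log2 change of 0.01 (SE 0.13) and Gsdmd, the pore former, one of -0.09 (SE 0.21). Of 19 measured genes of the pathway, 10 were higher, and the median was 0.01. By edgeR 0 had an unadjusted p under 0.05, against 7.49% of all genes, a count near that share in so short a list. Gfap and Aif1, markers of astrocytes and microglia, had log2 changes of 0.30 (SE 0.33) and 0.29 (SE 0.16), with groups that overlapped.

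Dopamine markers had low levels in the striatum, which holds the fibres but not the cell bodies of dopamine neurons. Th, which makes the precursor of dopamine, was at 6.402, 6.81 and 7.61 CPM in 6-OHDA and 6.27, 7.80 and 5.69 in TUG469 libraries, groups that overlapped. Slc18a2, the vesicle transporter, was at 0.655, 0.624 and 1.47 CPM against 0.287, 0.537 and 0.334 (log2 change -1.25, SE 0.47; edgeR adjusted p = 0.614). Gch1, which makes the cofactor of Th, had a log2 change of -0.64.

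No list of striatal or cortical neuron markers held more than 1 gene at an unadjusted p under 0.05, which 7.49% of all genes had. Of 15 shared projection neuron markers, 14 were lower with a median log2 change of -0.10 and 0 at an unadjusted p under 0.05. The direction turned without 6-OHDA 4, where 13 of 15 were higher with a median of 0.14, and with the cortical marker level as a covariate, where 9 of 15 were higher with a median of 0.02; with single libraries left out the median ranged from -0.25 to 0.14. Ppp1r1b, which encodes DARPP-32, had a log2 change of 0.01 (SE 0.23), and Drd1 and Drd2, the receptors that mark the direct and indirect pathways, had -0.21 (SE 0.22) and 0.02 (SE 0.19). Cortical neuron markers had a median of 0.28, which ranged from -0.05 without TUG469 1, where 5 of 13 were higher, to 0.76 without TUG469 2. Cholesterol synthesis genes were higher in 18 of 20 with a median of 0.22 and 4 at an unadjusted p under 0.05 (background 3.46%). That count was 2 without 6-OHDA 4 and 1 without TUG469 4, with medians of 0.13 and 0.12. Insig1, the sterol sensor partner, was at 41.6, 37.6 and 31.0 CPM in 6-OHDA and 47.3, 43.6 and 58.1 in TUG469 libraries. Nuclear genes of oxidative phosphorylation had a median of 0.09 and cytosolic ribosomal protein genes also 0.09, and both medians were 0.03 once a trend of log2 change with transcript length was removed (Spearman correlation -0.16 across genes, which are not independent replicates).

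**Figure D4:**
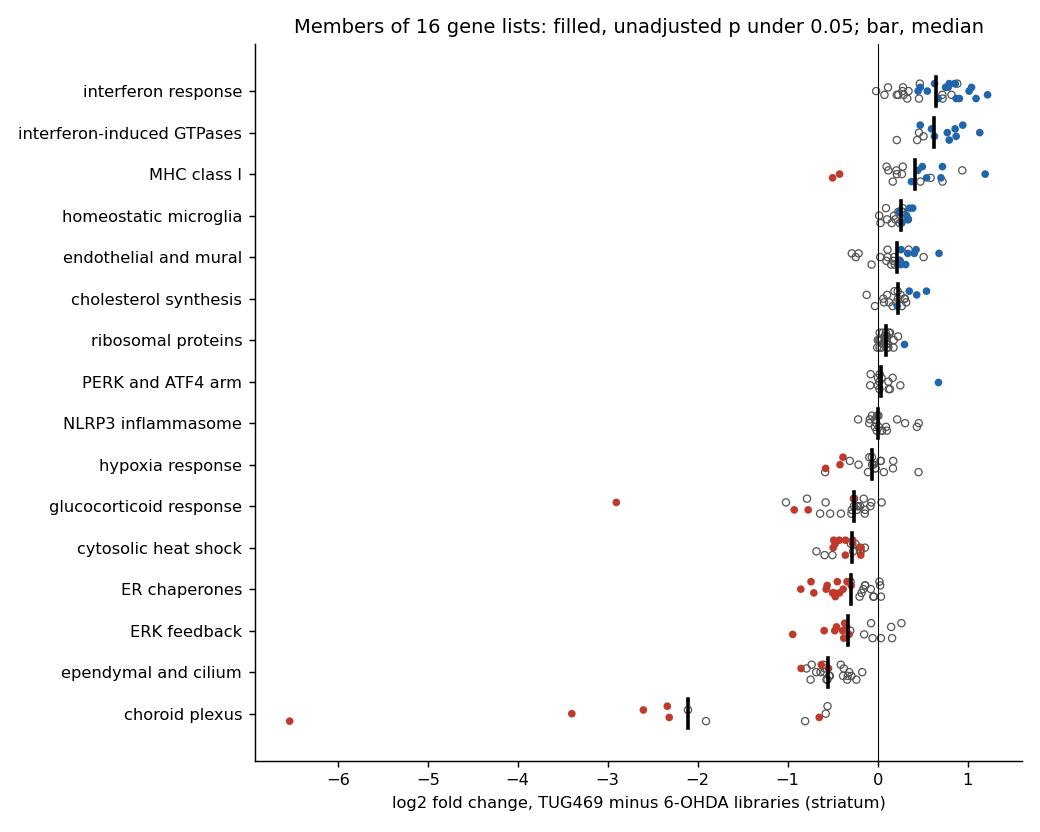
Log2 change of each member (points) of 16 gene lists, filled where the unadjusted edgeR p is under 0.05 (blue higher, red lower) and open otherwise; black bars are list medians. Interferon and MHC class I genes lie to the right, chaperone, ERK feedback and glucocorticoid genes to the left, the PERK and inflammasome lists around 0, and the choroid plexus points reach -6.54.

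The same contrast in the nigra had 1 gene past the threshold (0.00508%), Slc6a3. The difference of the TUG469 contrast between tissues was tested over 18749 genes in 18 libraries, and 0 passed (0%), with 700 at an unadjusted p under 0.05 (3.73%). For Plekhg4 the log2 change was -0.52 in nigra, and the difference of -0.71 (SE 0.18) had an edgeR unadjusted p of 0.00105 and an adjusted p of 1.00. For Hspa5 the nigral log2 change was -0.63, and the ER chaperone list had a nigral median of -0.30 with 24 of 25 lower. The interferon list had a nigral median of 0.06 with 19 of 32 higher, and MHC class I genes 0.07 with 14 of 20 higher. The GTPase list had 0.26 with 12 of 13 higher. Glucocorticoid and cytosolic heat shock genes had nigral medians of -0.47 and -0.22, with 0 of 24 and 0 of 20 higher. Homeostatic microglia genes had 0.06 with 15 of 20 higher, and ERK feedback genes -0.15 with 7 of 18 higher. Ependymal and cilium genes went the other way in nigra, at 0.20 with 18 of 24 higher. For B2m the difference between tissues was 0.42, at an unadjusted p of 0.00233 and an adjusted p of 1.00 by edgeR. No gene was shown to differ between tissues, and the labels do not state whether the libraries of both tissues came from the same mice.

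**Figure D5:**
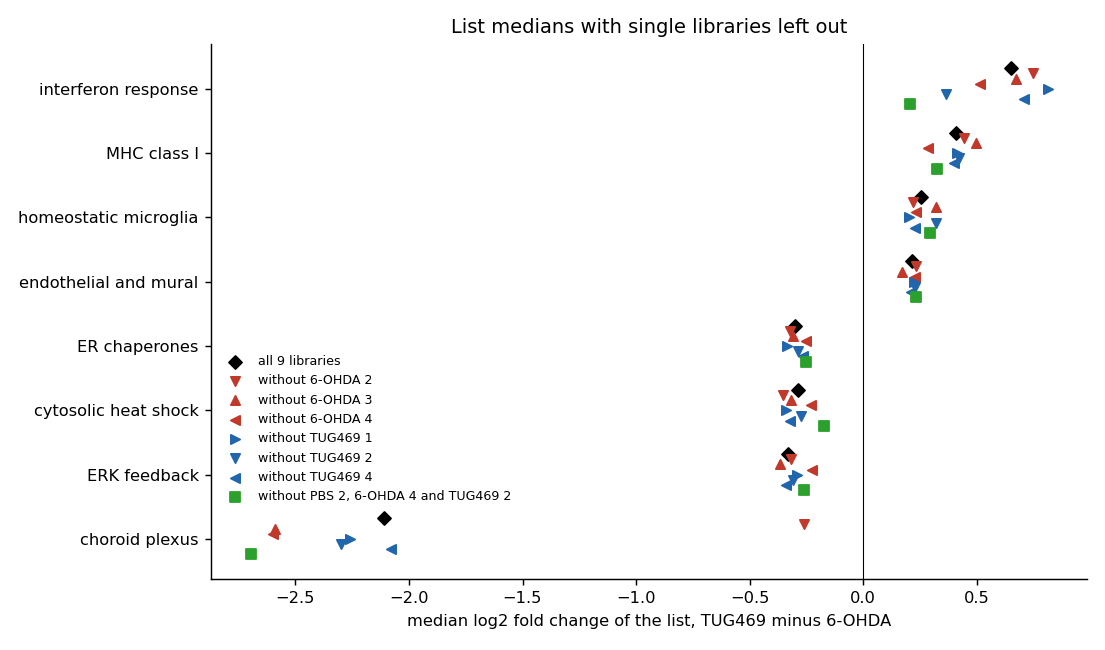
Median log2 change of 8 gene lists with all 9 libraries (black diamonds), with each 6-OHDA (red) or TUG469 (blue) library left out, and without the 3 libraries low in cortical markers (green squares). The interferon median moves from 0.65 to 0.37 without TUG469 2, the choroid plexus median from -2.11 to -0.26 without 6-OHDA 2, and the microglial, vessel and ER chaperone medians stay within 0.17 to 0.33 of 0 in size.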

How the data were processed

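RNA was measured in the striatum and nigra of mice, per the labels' protocols with a stranded poly(A) library kit. The submitters' processing notes list the aligner STAR 2.7.3a, Cufflinks, Trim Galore 0.38, FastQC 0.11.7 and the build GRCm38; a strand setting for counting is not stated there. Whole-number read counts were deposited, per the file headers, and served every test, while the deposited FPKM values served only in alternatives. The authors also deposited adjusted p-values, of which 1 value and 1 count are quoted. Each table lists only genes with counts in all of its libraries.

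The 9 striatal libraries were fitted together, each group having its own mean: edgeR 4.0.16 in R 4.3.3, TMM scaling, filterByExpr (minimum count 10, minimum total 15), the quasi-likelihood F test and Benjamini-Hochberg adjustment over 19115 of 20257 genes at 0.05. Fold changes and standard errors come from this fit, and CPM from the counts and TMM factors. An interaction over 18 libraries compared the contrast between tissues. The fit was also run on simulated counts with planted changes larger than most of those given here, so that run does not speak to smaller changes. DESeq2 1.42.0, limma 3.58.1, other scalings, a replicate block and left-out libraries were alternatives.

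The comparison and 36 gene lists were chosen with earlier results of these data known. 8 further lists (the ER chaperone, PERK, cytosolic heat shock, Plekhg, ERK feedback, cold-induced, hypoxia and GTPase lists) and 2 motifs were added after gene values had been seen, and so were the names taken from them. Genes were named if they were the study's own, among the 10 smallest p in a direction with groups apart and a mean of at least 1 CPM, among the 5 largest changes from a mean of 5 CPM up (predicted genes passed over in both), or among the 5 smallest p under 0.05 of a list; further list members are named beside them to show how a list varied, chosen after their values were seen. 1 gene of the interferon list enters its counts and medians but is not reported here by itself. Identifiers matched RefSeq for 20207 genes.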

Additional observations from a re-analysis of the deposited data

How the results depend on the processing

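The count of genes lower was 1 with RLE or upper quartile scaling, no filter and the length trend removed. It was 0 with the 6 compared libraries alone, limma-voom, limma on log2(FPKM + 1) or log2(FPKM + 0.1), without the 3 libraries low in cortical markers, and without 6-OHDA 2 and TUG469 2 together, while DESeq2 gave 34 lower and 27 higher with or without independent filtering. With single libraries left out it ranged from 0 to 1, and the count higher was 0 to 0. The replicate block, for which the compared groups share only numbers 2 and 4 (correlations of -0.264 and -0.241 between same-numbered libraries), gave 0 lower. The numbers share a name only, and no library with a shared number correlated best with its own number. Upper quartile scaling moved the split at an unadjusted p under 0.05 from 661 higher and 770 lower to 803 and 626, with a shift of the median of all genes to 0.02. The interaction gave 0 to 2 genes higher in striatum with single libraries left out, the 2 being Tph2 and Slc10a4 without nigral TUG469 1. Among named genes, signs changed for Ttr (0.071) and Tmem72 (0.033) without 6-OHDA 2 and TUG469 2, for Nlrp3 (-0.044) and Il18 (-0.11) without the 3 libraries low in cortical markers, and for Gsdmd (0.22), Casp1 (0.14) and Pycard (0.025) without 6-OHDA 2 and TUG469 2. Casp1 was at 0.30 with the replicate block and 0.044 with limma-voom, Il18 at -0.0037 with both FPKM fits and -0.034 with the length trend removed, and Pycard at 0.015 with upper quartile scaling, 0.0054 with no filter and 0.00036 with limma-voom. With single libraries left out, log2 changes ranged from -0.21 to 0.0296 for Th, -3.11 to 0.079 for Tmem72, -0.039 to 0.18 for Nlrp3, -0.22 to 0.16 for Gsdmd, -0.33 to 0.16 for Casp1, -0.069 to 0.16 for Il18 and -0.11 to 0.14 for Pycard. The causes were not tested. Near 1 CPM the SE was 0.40 for Casp1 and 0.21 for Nlrp3, and what part depth has in this was not tested.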

Other observations

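Some genes with small p stood in the TUG469 libraries near their PBS level. Sco2, an assembly factor of cytochrome c oxidase, was at 3.34, 3.36 and 3.65 CPM in PBS, 1.80, 2.33 and 1.64 in 6-OHDA and 3.33, 3.52 and 3.40 in TUG469 libraries. Ier5l, a relative of an immediate early gene, was at 17.0, 15.1 and 17.3 CPM in PBS, 10.5, 12.4 and 10.8 in 6-OHDA and 16.3, 18.3 and 15.5 in TUG469 libraries. Both were among the 10 higher genes with the smallest p and groups apart. That their 6-OHDA libraries lay under the TUG469 libraries thus follows from that choice. The 6-OHDA libraries also lay under the PBS libraries, a comparison that shares these 6-OHDA libraries with this one. Log2 changes were 0.83 (SE 0.16) and 0.57 (SE 0.10). The edgeR adjusted p was 0.366 and 0.346, and the DESeq2 adjusted p was 0.00545 and 0.00182. Scand1, a SCAN domain gene, was at 14.9, 15.4 and 16.6 CPM in PBS, 6.59, 7.28 and 5.81 in 6-OHDA and 10.7, 19.3 and 8.45 in TUG469 libraries, so here the treated libraries were spread around the PBS level.

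Gjb6, the astrocyte gap junction gene connexin 30, was at 40.7, 40.8 and 30.8 CPM in PBS, 28.1, 30.3 and 29.1 in 6-OHDA and 19.6, 14.3 and 21.3 in TUG469 libraries, with a log2 change of -0.67 (SE 0.15; edgeR adjusted p = 0.492; DESeq2 adjusted p = 0.0191). The homeostatic astrocyte list of 15 genes had a median log2 change of -0.01, and Gjb6 was its 1 member at an unadjusted p under 0.05. Among 19 hypoxia response genes, a list chosen after values were seen, 13 were lower with a median of -0.06, and the members at an unadjusted p under 0.05 were P4ha1, P4ha2 and Pfkfb3, the last a driver of glycolysis with 62.8, 51.6 and 68.4 CPM in 6-OHDA and 43.1, 46.9 and 49.9 in TUG469 libraries. Over all genes, 4.03% were lower at that p and 3.46% higher. Vegfa, Pgk1 and Ldha, also known hypoxia targets, had log2 changes of -0.31, -0.03 and 0.03. Of the clock genes, Per2 was at 83.4, 85.0 and 118 CPM in 6-OHDA and 60.8, 65.0 and 70.7 in TUG469 libraries and Arntl at 40.7, 39.1 and 52.5 against 34.1, 35.6 and 29.2; 2 of 18 were lower at that p and 1, Dbp, was higher. The hour at which tissue was taken is not given in the labels.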
